A study of Saccharomyces cerevisiae with 12 samples.

Results

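The genes described here are 10 glucose-repressed genes of budding yeast, JEN1, ADY2, SFC1, CAT8, REG2, PCK1, FBP1, ICL1, MLS1 and ACS1, out of 7126 counted features. They were chosen by name from a list drawn up with the heat changes of these libraries already known. The list has no threshold, and the heat changes of its members are therefore given as a description, without a test. Of the 10 genes, 8 had enough counts to be tested, and FBP1 and SFC1 did not.

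The study sequenced RNA recovered after UV cross-linking by immunoprecipitation (IP) of Npl3, a nuclear mRNA-binding protein (strain HKY157), and of Mex67, the mRNA export receptor (strain HKY1266). A control without a tag (HKY36/HKY381) was taken through the procedure, and the labels do not say which of its libraries came from which of these strains. All cultures grew at 25 °C in YPD, a rich medium with glucose, and were divided. One part was kept for 30 min at 42 °C and the other at 25 °C, both in YPD, before cross-linking. The groups were Npl3 IP, Mex67 IP and no tag at 42 °C, and Npl3 IP, Mex67 IP and no tag at 25 °C, with 2 libraries each that the series design calls biological replicates. Both c-myc antibody and GFP-Trap beads are named in the protocol, not assigned to samples, and the labels give no genotype beyond the strain numbers.

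Yeast given glucose represses the genes for other carbon sources. The kinase Snf1 is kept inactive by the phosphatase Glc7 with its subunit Reg1, and the repressor Mig1 sits on many of the promoters. When glucose runs out, Snf1 acts, the activators Cat8 and Adr1 are made and switched on, and genes for uptake of lactate and acetate, for the glyoxylate cycle and for gluconeogenesis follow. After glucose returns, the GID ubiquitin ligase marks enzymes such as Fbp1 and Pck1 for destruction.

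The libraries held 87741 to 1140349 counts, and the 10 genes together took 9 to 921 of these. HSP26, a small heat shock protein gene, reached 3544 to 10305 CPM in 5 of 6 heated libraries, against 56.7 to 633 CPM in the unheated ones. CPM, counts relative to the total of each library, were scaled between libraries with the TMM method of edgeR. HSP26 stood at 300.4 CPM in heated no-tag replicate 1. HSP12, another heat gene, stood at 2149 to 5727 CPM in the same 5 libraries and at 300.4 CPM in no-tag replicate 1, beside 42.0 to 306 CPM at 25 °C. No-tag replicate 1 at 42 °C was also the smallest library, so that 3 counts in it stand for 50.1 CPM. Of the 7 heat genes checked, the others parted the temperatures less clearly. In Npl3 IP SSA4 had 577 and 1322 CPM at 42 °C, against 600 and 75.1 CPM at 25 °C. HSP30 had 47.0 and 110 CPM there, against 36.0 and 176 CPM. HSP42 and BTN2 also overlapped in Npl3 IP, while HSP104 did not. In Mex67 IP HSP42 and BTN2 overlapped, while HSP104, SSA4 and HSP30 did not. STE2, the alpha-factor receptor gene, had 0 to 7.73 CPM in every replicate 1 and 126 to 354 CPM in every replicate 2, so it moved with the replicate number. The mating type genes MFA1 and MFA2 were likewise higher in replicate 2 than in replicate 1 of every group. MFA2, for example, had 18.0 and 787 CPM in Npl3 IP at 25 °C (replicates 1 and 2). The genes STE3, MF(ALPHA)1 and MF(ALPHA)2 did not follow the replicate number in the same way in all groups. STE3, the a-factor receptor gene, had 1.24 and 54.4 CPM in Npl3 IP (replicates 1 and 2) at 42 °C. It had 131 and 83.9 CPM in Mex67 IP and 467 and 299 CPM without a tag at that temperature. Npl3 replicate 1 was low for both receptor genes, unlike the other cultures. At 25 °C and 42 °C it had 0 and 6.19 CPM of STE2 and 2.77 and 1.24 CPM of STE3. What part this difference between cultures had in the levels of the 10 genes was not tested. No library of total RNA was analysed here, so more message in the cells and more binding of each message to the protein cannot be told apart. In such bulk samples, fewer cells with a message and less of it per cell cannot be told apart either.

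The summed level of the 10 genes had its highest mean in Npl3 IP at 42 °C, which replicate 1 carried, while replicate 2 lay below both heated Mex67 libraries. Their summed level was 1140.2 and 256 CPM (replicates 1 and 2) in Npl3 IP at 42 °C, against 73.4 and 55.1 CPM in Npl3 IP at 25 °C. In Mex67 IP the sum was 506 and 310 CPM at 42 °C and 175 and 161 CPM at 25 °C. The no-tag control gave 150.2 and 181 CPM at 42 °C and 51.4 and 109 CPM at 25 °C. Each pair at 42 °C thus lay above the pair at 25 °C of its own strain, and the heated Npl3 replicates differed more from each other than those of any other group.

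The ratio of 42 °C over 25 °C for the summed counts was 15.5 in the first Npl3 culture (95% counting interval 11.8 to 20.9) and 4.65 in the second (3.57 to 6.13). For the Mex67 cultures it was 2.88 (2.24 to 3.76) and 1.93 (1.44 to 2.60). For the no-tag cultures it was 2.92 (1.22 to 6.34) and 1.65 (1.10 to 2.51). These intervals cover counting error only. The intervals of the Npl3 cultures do not overlap. The first culture had more HSP26 than the second at both temperatures. HSP26 stood at 10305 CPM against 5293 at 42 °C, and at 633 CPM against 86.3 at 25 °C. The heat ratio of HSP26 was therefore not larger in the first culture.

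Ordered by mean level, Npl3 IP at 42 °C came first (698 ± 625 CPM, SD, n = 2), followed by Mex67 IP at 42 °C (408 ± 139), Mex67 IP at 25 °C (168 ± 10.2), no tag at 42 °C (165 ± 21.5), no tag at 25 °C (80.4 ± 41.1) and Npl3 IP at 25 °C (64.3 ± 12.9). Libraries overlap between the 2 heated IPs, between Mex67 IP at 25 °C and no tag at 42 °C, and between no tag and Npl3 IP at 25 °C. The other neighbours in this order, heated and unheated Mex67 IP and heated and unheated no tag, do not overlap.

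**Figure D1:**
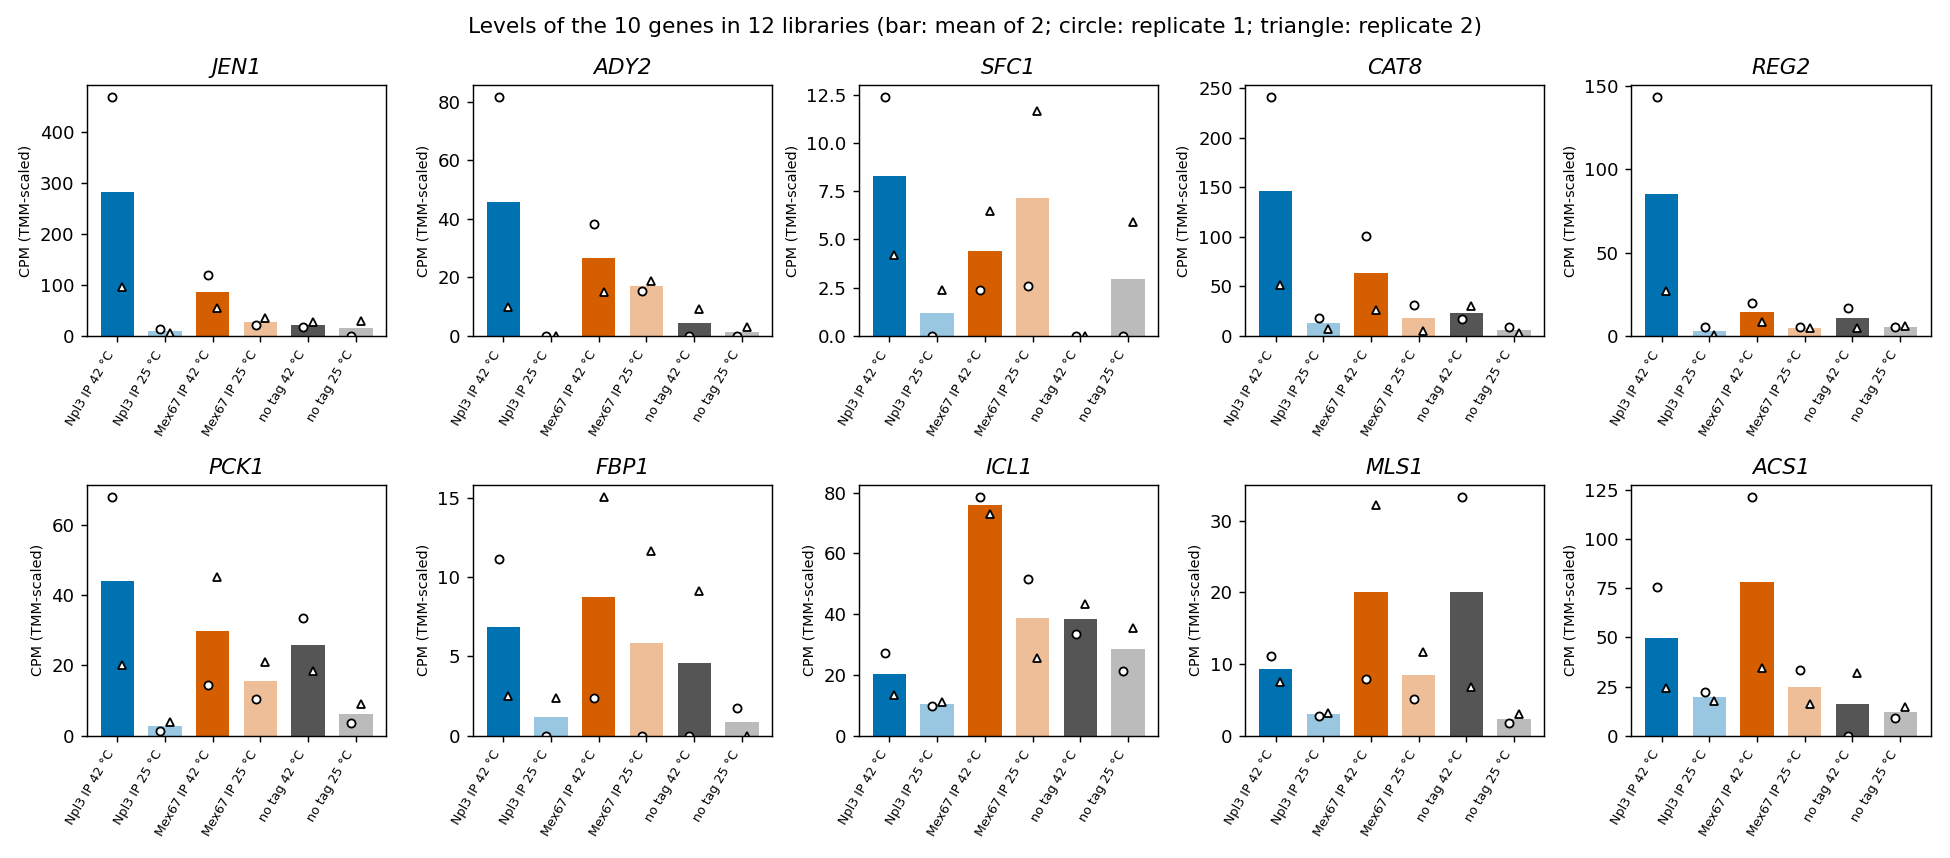
Level of each of the 10 genes (TMM-scaled CPM, linear axis, own scale per gene) in the 12 libraries. Bars are means of 2 libraries, circles replicate 1 and triangles replicate 2. For JEN1, CAT8, REG2, ADY2, PCK1 and SFC1 the highest point is replicate 1 of Npl3 IP at 42 °C.

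The transporters come first, since they bring the alternative carbon sources in. JEN1 (YKL217W, build R64, chromosome XI, 22234 to 24084), which encodes the lactate and pyruvate permease, had 468 and 95.4 CPM in Npl3 IP at 42 °C, against 13.8 and 6.39 CPM in Npl3 IP at 25 °C. It had 119 and 53.8 CPM in Mex67 IP at 42 °C, against 20.6 and 35.0 CPM in Mex67 IP at 25 °C. Without a tag it had 16.7 and 27.4 CPM at 42 °C, against 0 and 29.6 CPM at 25 °C. Both heated libraries of each IP lay above both unheated ones, whereas those of the control overlapped. With counts pooled over the cultures, the ratio was 26.9 (counting interval 16.9 to 45.9) in Npl3 IP and 3.61 (2.33 to 5.84) in Mex67 IP. The log2 change in the fit of all libraries was 4.84 ± 1.08 (SE) for Npl3 IP, 1.66 ± 1.00 for Mex67 IP and 1.01 ± 1.39 for no tag.

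ADY2 (YCR010C, chromosome III, 132273 to 133124), an acetate transporter gene, had 81.7 and 10.0 CPM in Npl3 IP at 42 °C and 0 counts in both Npl3 libraries at 25 °C. Set against 3 counts over both unheated libraries, the pooled level at 42 °C was 25.6-fold higher. This value leaves out the error of the heated counts and is no lower bound for each culture. Of the 78 heated counts, 66 came from replicate 1. In single unheated libraries 3 counts stand for 4.15 and 2.40 CPM. In Mex67 IP it had 38.2 and 15.1 CPM at 42 °C, against 15.5 and 18.7 CPM at 25 °C, so these groups overlapped. The control held 0 and 4 counts at 42 °C, against 0 and 1 count at 25 °C. ADY2 has a close relative, ATO2, and how multi-mapping reads were handled was not given in the sources used here, so its counts are uncertain to that extent. SFC1 (YJR095W, chromosome X, 609773 to 610741), the succinate and fumarate carrier gene of the mitochondrion, was scarce, with 10 and 5 counts in Npl3 IP at 42 °C, against 0 and 3 counts at 25 °C. In Mex67 IP it had 3 and 3 counts at 42 °C, against 1 and 5 counts at 25 °C, and the control held 0 and 0 counts at 42 °C, against 0 and 2 at 25 °C. In TMM-scaled CPM SFC1 was lower at 42 °C in both Mex67 cultures, on very few counts. In the first culture this rests on the scaling (2.39 CPM at 42 °C, 2.58 CPM at 25 °C). Relative to the unscaled totals of 889402 and 354440 counts it was not lower there.

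Of the regulators, CAT8 (YMR280C, chromosome XIII, 827028 to 831329) encodes the zinc cluster activator of most of the other genes listed here. CAT8 had 241 and 51.9 CPM in Npl3 IP at 42 °C, against 18.0 and 7.19 CPM in Npl3 IP at 25 °C. Mex67 IP gave 101 and 25.8 CPM at 42 °C, against 30.9 and 4.66 CPM at 25 °C. The control gave 16.7 and 29.7 CPM at 42 °C, against 8.86 and 2.96 CPM at 25 °C. The heated libraries lay above the unheated ones in Npl3 IP and in the control, and overlapped with them in Mex67 IP, where each culture was higher at 42 °C. The pooled ratio was 11.5 (7.44 to 18.7) in Npl3 IP, 4.71 (2.71 to 8.84) in Mex67 IP and 4.23 (1.53 to 13.4) without a tag. In the fit, CAT8 had log2 changes of 3.59 ± 0.93, 1.92 ± 0.98 and 2.03 ± 1.37 in the same order.

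REG2 (YBR050C, chromosome II, 337183 to 338199) encodes a subunit of the phosphatase Glc7 that is related to Reg1. It had 144 and 26.8 CPM in Npl3 IP at 42 °C, against 5.54 and 0.799 CPM in Npl3 IP at 25 °C. In Mex67 IP it had 19.9 and 8.61 CPM at 42 °C, against 5.16 and 4.66 CPM at 25 °C, and the control held 1 and 2 counts at 42 °C, against 3 and 2 counts at 25 °C. Its pooled ratio in Npl3 IP was 29.2 (12.2 to 91.2) and in Mex67 IP 3.44 (1.21 to 13.5), from 5 and 4 counts at 25 °C. Both IPs had their heated libraries above their unheated ones, and in the control the total count was too low to compare.

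The gluconeogenic enzymes follow. PCK1 (YKR097W, chromosome XI, 631152 to 632801) encodes phosphoenolpyruvate carboxykinase, which opens gluconeogenesis from oxaloacetate. It had 68.1 and 20.1 CPM in Npl3 IP at 42 °C, against 1.38 and 3.99 CPM in Npl3 IP at 25 °C. The Mex67 libraries had 14.3 and 45.2 CPM at 42 °C, against 10.3 and 21.0 CPM at 25 °C, and those without a tag had 33.4 and 18.3 CPM at 42 °C, against 3.54 and 8.88 CPM at 25 °C. Groups did not overlap in Npl3 IP and in the control, while they did in Mex67 IP. The pooled ratios were 13.0 (5.71 to 36.4) for Npl3 IP and 1.42 (0.743 to 2.90) for Mex67 IP, and 3.63 (1.13 to 13.5) without a tag. FBP1 (YLR377C, chromosome XII, 873746 to 874792), the fructose bisphosphatase gene at the other end of the pathway, had 9 and 3 counts in Npl3 IP at 42 °C, against 0 and 3 counts at 25 °C. In Mex67 IP FBP1 had 3 and 7 counts at 42 °C, against 0 and 5 counts at 25 °C, and without a tag 0 and 4 counts at 42 °C, against 1 and 0 at 25 °C. At these counts no change of FBP1 was detectable in Mex67 IP, where the pooled ratio was 0.948 (0.295 to 3.54). In CPM each Mex67 culture was higher at 42 °C (2.39 and 15.1 CPM, against 0 and 11.7 CPM at 25 °C). The pooled ratio does not show this, because the libraries differed in depth.

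The glyoxylate cycle turns acetyl units into sugar precursors, and acetyl-CoA synthetase supplies them. ICL1 (YER065C, chromosome V, 285241 to 286914), which encodes isocitrate lyase, had 27.2 and 13.4 CPM in Npl3 IP at 42 °C, against 9.69 and 11.2 CPM in Npl3 IP at 25 °C. It had 78.7 and 73.1 CPM in Mex67 IP at 42 °C, against 51.6 and 25.7 CPM in Mex67 IP at 25 °C. The control had 33.4 and 43.4 CPM at 42 °C, against 21.3 and 35.5 CPM at 25 °C. ICL1 was thus higher in the heated Mex67 libraries than in any other library. The heated libraries lay above the unheated ones in both IPs and overlapped with them in the control. Its pooled ratio was 1.78 (1.02 to 3.20) in Npl3 IP, 2.03 (1.37 to 3.11) in Mex67 IP and 1.59 (0.841 to 2.98) without a tag.

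ACS1 (YAL054C, chromosome I, 42881 to 45022), which encodes an acetyl-CoA synthetase, had 75.5 and 24.3 CPM in Npl3 IP at 42 °C, against 22.2 and 17.6 CPM in Npl3 IP at 25 °C. In Mex67 IP it had 122 and 34.4 CPM at 42 °C, against 33.5 and 16.3 CPM at 25 °C, and without a tag 0 and 32.0 CPM at 42 °C, against 8.86 and 14.8 CPM at 25 °C. Heated and unheated libraries did not overlap in either IP and overlapped in the control. Its pooled ratio was 2.33 (1.58 to 3.51) in Npl3 IP and 4.01 (2.51 to 6.73) in Mex67 IP. The Mex67 ratio lay above that of either culture, because the pooled libraries differed in depth. By culture the log2 differences of CPM with a prior count of 2 were 1.77 and 0.95 in Mex67 IP. MLS1 (YNL117W, chromosome XIV, 406358 to 408022), the malate synthase gene, had 9 and 9 counts in Npl3 IP at 42 °C, against 2 and 4 counts at 25 °C. Mex67 IP held 10 and 15 counts of MLS1 at 42 °C, against 2 and 5 counts at 25 °C, and the pooled ratios were 2.96 (1.12 to 9.10) and 1.69 (0.712 to 4.64) for the Npl3 and Mex67 libraries. Without a tag MLS1 held 2 and 3 counts at 42 °C, against 1 and 1 at 25 °C. In CPM the heated MLS1 values lay above the unheated ones in Npl3 IP and in the control, and overlapped in Mex67 IP. In the control the total count was too low for a comparison.

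**Figure D2:**
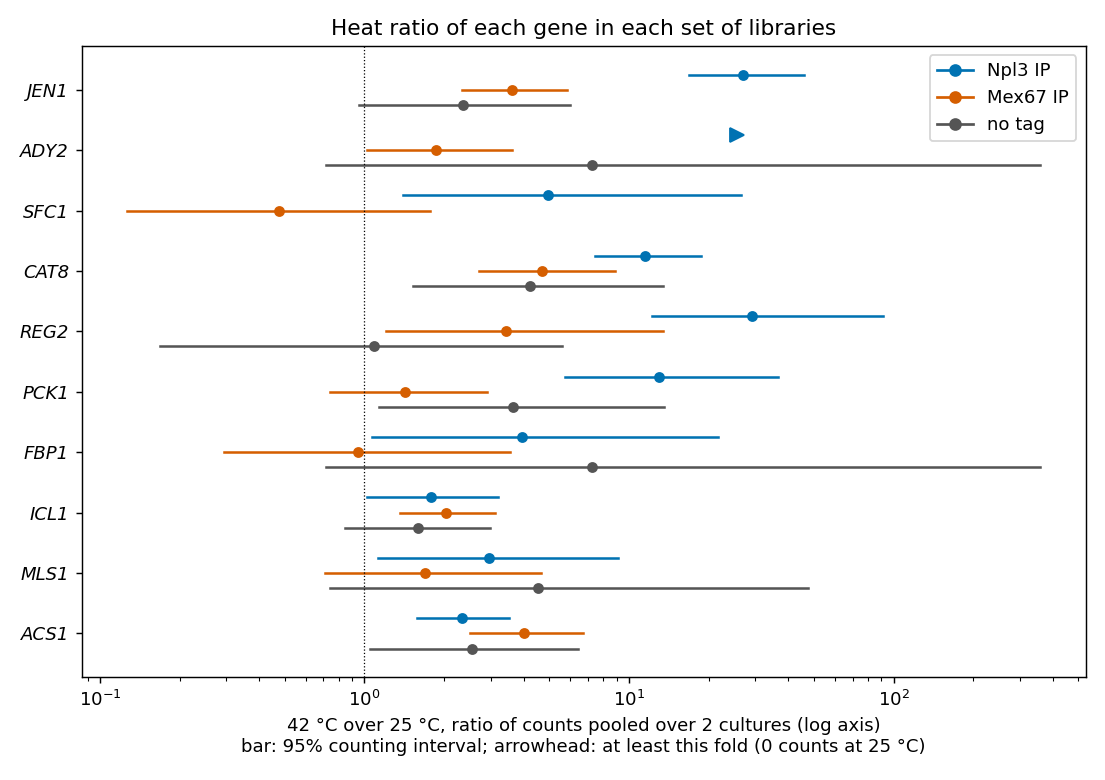
Ratio of 42 °C over 25 °C for each gene, with counts pooled over 2 cultures and divided by scaled library size (log axis), and 95% counting intervals as bars. In Npl3 IP JEN1 and REG2 lie at 26.9 and 29.2, and ICL1 and ACS1 lie at 1.78 and 2.33. ADY2 in Npl3 IP, the arrowhead at 25.6, is set against 3 counts at 25 °C and leaves out the error of the heated counts. SFC1 without a tag has no point because both its groups hold 3 counts or fewer.

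Over the 10 genes, both heated libraries lay above both unheated ones for 10 in Npl3 IP, 4 in Mex67 IP and 3 without a tag. Of all 5245 features tested, 26.4%, 21.9% and 9.72% did so in the same comparisons. Since the genes were chosen with these heat changes known, the counts are a description. FBP1 counts among the 10 in Npl3 IP only through library size, since replicate 2 held 3 counts at both temperatures (2.51 CPM at 42 °C and 2.40 CPM at 25 °C). FBP1 and SFC1 did not pass the filter that the 5245 features passed. The 3 genes without a tag were CAT8, PCK1 and MLS1. They held only 1, 2 and 2 counts in heated no-tag replicate 1, the smallest library. The median pooled ratio was 8.22 in Npl3 IP, with ADY2 set against 3 counts, 1.95 in Mex67 IP and 3.09 without a tag. The value without a tag rests on few counts, such as 4 against 1 for ADY2 and for FBP1. The median log2 change in the fit was 2.95 in Npl3 IP, 1.02 in Mex67 IP and 1.52 without a tag, beside 0.10, 0.05 and −0.07 over all features. In Npl3 IP it was 1.76 without replicate 1 and 3.62 without replicate 2 at 42 °C, and 4.09 without replicate 2 at 25 °C. In the control it was 0.43 without replicate 2 at 42 °C, which leaves as its heated library only the one without a high HSP26 level, and 1.01 without replicate 1 at 25 °C. From differences per culture with a prior count of 2, the median was 2.12 in Npl3 IP, 0.92 in Mex67 IP and 0.59 without a tag. The order of Mex67 IP and the control was thus reversed, so these values do not rank them.

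The genes took unlike shares of the set's counts in the heated libraries of the IPs. JEN1 took 41.0% (exact binomial interval 37.8% to 44.3%) and 37.3% (31.8% to 42.9%) of the counts of the 10 genes in the heated Npl3 libraries, and 23.6% (20.3% to 27.1%) and 17.4% (11.6% to 24.6%) in the heated Mex67 libraries. REG2 took 12.6% and 10.5% in the heated Npl3 libraries, against 3.93% and 2.78% in the heated Mex67 libraries. The reverse held for ICL1, with 2.39% (1.50% to 3.59%) and 5.23% (3.02% to 8.35%) in the heated Npl3 libraries and 15.6% (12.8% to 18.6%) and 23.6% (16.9% to 31.4%) in the heated Mex67 libraries. CAT8 held 21.2% and 20.3% in Npl3 IP, and 20.0% and 8.33% in Mex67 IP, where the replicates differed. Per kilobase of gene, JEN1 was the most abundant of the 10 in Npl3 IP at 42 °C (152 CPM per kb on average), ahead of REG2 (83.8), and these led in both libraries. In Mex67 IP at 42 °C the order differed between the libraries. Replicate 1 had JEN1 (64.4 CPM per kb), ACS1 (56.8), ICL1 (47.0) and ADY2 (44.8) in front, and replicate 2 had ICL1 (43.7), JEN1 (29.1) and PCK1 (27.4), with ACS1 at 16.1.

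**Figure D3:**
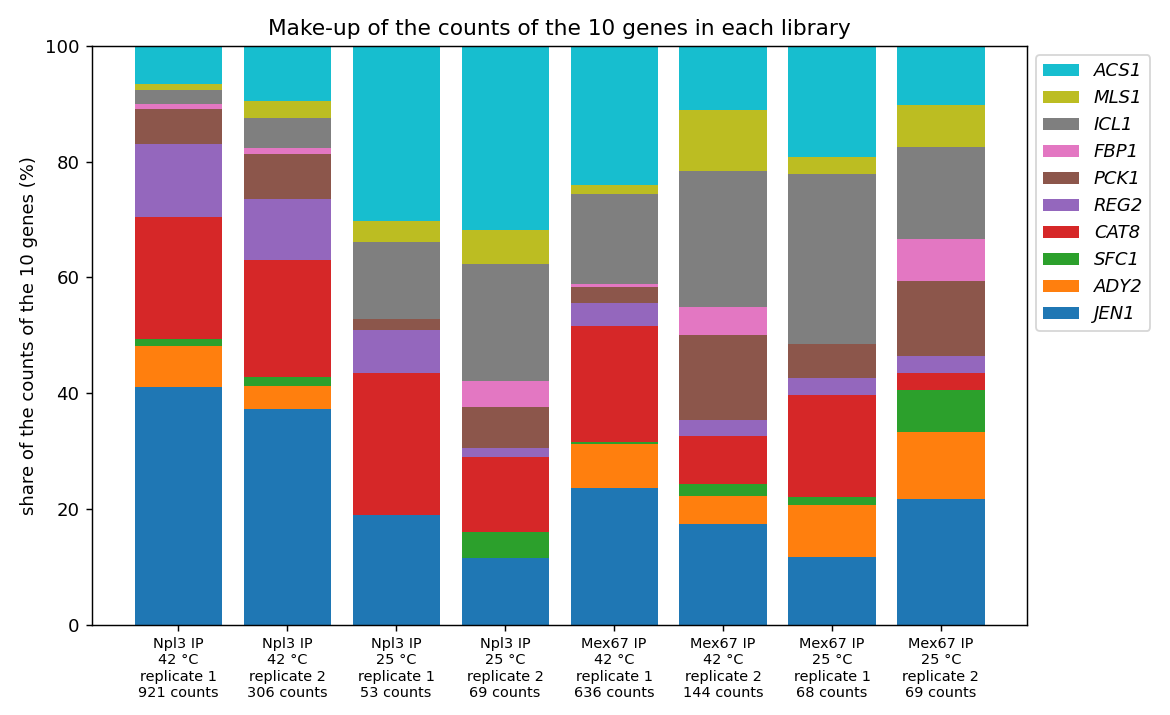
Share of the counts of the 10 genes that each gene took in the Npl3 and Mex67 libraries (percent), with the number of counts under each bar. JEN1 takes 41.0% and 37.3% in Npl3 IP at 42 °C and ICL1 takes 15.6% and 23.6% in Mex67 IP at 42 °C.

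The next question was whether the genes were recovered above the no-tag control, or differently by the 2 proteins, at one temperature. These tests share libraries with the heat changes by which the genes were known, so they are not fully independent of the choice. At 25 °C, Npl3 IP against no tag passed for 0 of the 8 tested genes (edgeR quasi-likelihood, Benjamini-Hochberg over all features, where 2.4% passed in either direction). There was 1 gene at an unadjusted p under 0.05 (20.6% of all features) and 0 with DESeq2 (4.82%). That gene was ICL1, at 10.4 ± 1.05 CPM in Npl3 IP and 28.4 ± 10.1 CPM without a tag (SD, n = 2 each; log2 change −1.37 ± 0.53, adjusted p = 0.167). Mex67 IP against no tag at 25 °C likewise passed for 0 genes (0% of all features), with 1 gene at an unadjusted p under 0.05 (3.89%) and 0 with DESeq2 (0.0191%). The 1 gene was ADY2, with 14 counts in Mex67 IP and 1 without a tag (edgeR adjusted p = 0.999).

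At 42 °C, 0 of the 8 tested genes passed in Npl3 IP against no tag, where 7.47% of all features passed, although 3 were at an unadjusted p under 0.05 (28.1%) and 2 passed with DESeq2 (10.5%). JEN1 averaged 282 ± 263 CPM in Npl3 IP and 22.1 ± 7.60 CPM without a tag, with a log2 change of 3.47 ± 1.15 (adjusted p = 0.0895 with edgeR and 0.0127 with DESeq2). REG2 had 148 counts in Npl3 IP and 3 without a tag (adjusted p = 0.0586 and 0.0329), and CAT8 had a log2 change of 2.42 ± 1.03 (0.157 and 0.088). REG2 had at most 5.92 CPM in any library at 25 °C. It had enough counts to be tested only through heated libraries, chiefly those of Npl3 IP. Its p-values therefore reuse values by which the genes were known. Both Npl3 libraries lay above both control libraries for 5 of the 10 genes, beside 34.9% of all features. The count of genes that passed was 1 without either no-tag library at 25 °C. In Mex67 IP against no tag at 42 °C 0 genes passed (0% of all features), with 0 at an unadjusted p under 0.05 (11.5%) and 0 with DESeq2 (0%). ACS1 had the lowest adjusted p there, with 0.454 and a log2 change of 1.66 ± 0.81.

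Mex67 IP was also set against Npl3 IP directly. At 25 °C 0 of the 8 tested genes passed (2.8% of all features), with 3 at an unadjusted p under 0.05 (23.5%) and 1 with DESeq2 (5.36%). All 10 had log2 changes above 0, with a median of 1.68 beside 0.03 over all features. Both Mex67 libraries lay above both Npl3 libraries for 6 of the 10 genes, beside 28.2% of all features. ADY2 had 14 counts in Mex67 IP and 0 in Npl3 IP (adjusted p = 0.079 with edgeR, 0.0118 with DESeq2). With 3 counts set for both Npl3 libraries together this is 11.3-fold higher, which leaves out the error of the 14 counts. ICL1 averaged 38.6 ± 18.3 CPM in Mex67 IP and 10.4 ± 1.05 CPM in Npl3 IP (log2 change 1.84 ± 0.52, edgeR adjusted p = 0.0632). Without either heated Npl3 library 1 gene passed. PCK1 averaged 15.6 ± 7.55 CPM in Mex67 IP and 2.69 ± 1.84 CPM in Npl3 IP (2.35 ± 0.97, adjusted p = 0.171).

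At 42 °C 1 gene, ICL1, passed in Mex67 IP against Npl3 IP, where 3.93% of all features passed, with 2 genes at an unadjusted p under 0.05 (23.2%) and 1 with DESeq2 (5.2%). ICL1 averaged 75.9 ± 3.94 CPM in Mex67 IP and 20.3 ± 9.79 CPM in Npl3 IP, higher in both Mex67 libraries than in both Npl3 libraries. The log2 change was 1.93 ± 0.45 (adjusted p = 0.041 with edgeR, 0.0359 with DESeq2). REG2 went the other way, with 14.2 ± 7.97 CPM in Mex67 IP and 85.2 ± 82.6 CPM in Npl3 IP (log2 change −2.42 ± 0.73, adjusted p = 0.0804). JEN1 had −1.66 ± 0.88 (adjusted p = 0.292), and the median over the 10 genes was −0.65 beside −0.04 over all features. Without a tag ICL1 averaged 38.4 ± 7.12 CPM at 42 °C, between the 2 IPs. Against no tag, its log2 change was −1.04 ± 0.54 in Npl3 IP (edgeR adjusted p = 0.219) and 0.89 ± 0.51 in Mex67 IP (0.51). The ICL1 call remained in 2 of 12 fits that each left out 1 library, with log2 changes of 1.47 to 2.49, and was lost after a correction for gene length (1.78, adjusted p = 0.0955). Without any 1 of the libraries compared the adjusted p was 0.0781 (Mex67 replicate 1), 0.117 (Mex67 replicate 2), 0.297 (Npl3 replicate 1) or 0.117 (Npl3 replicate 2).

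Other genes of carbon metabolism were listed by function to see how the rest of the pathway stood, without a check that each is glucose-repressed. Of 38 such genes 28 were tested, and in the heat comparison of Npl3 IP 0 passed with edgeR, as for all features (0%), with 6 at an unadjusted p under 0.05 (11% of all features) and 1 with DESeq2 (0.515%). Log2 changes lay above 0 for 25 of the 28, with a median of 0.85, beside 56.6% and 0.10 over all features. That 1 gene was CYB2, the lactate dehydrogenase gene of the mitochondrion, whose product uses the lactate that Jen1 imports. CYB2 had 176 and 50.2 CPM in Npl3 IP at 42 °C, against 13.8 and 6.39 CPM in Npl3 IP at 25 °C. Its log2 change was 3.52 ± 0.77 (adjusted p = 0.232 with edgeR, 0.0132 with DESeq2), and with the culture as a replicate block it passed with edgeR as well (3.32, adjusted p = 0.00873, where 0.877% of all features passed). Of 12 fits that each left out 1 library CYB2 passed in 1, without Npl3 replicate 2 at 42 °C (4.17, 0.0315), where the lone heated Npl3 library is assumed to vary like the other groups. Without Npl3 replicate 1 at 42 °C it had 2.36 (adjusted p = 1). CAT2, a carnitine acetyltransferase gene, had 2.58 ± 0.69 (adjusted p = 0.332).

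In Mex67 IP the same list had 0 calls upon heat (0% of all features), 4 genes at an unadjusted p under 0.05 (10.2%) and 0 with DESeq2 (0.133%), with 19 of 28 above 0 and a median of 0.42. The lowest p values belonged to ATO3, a relative of ADY2 that encodes a putative ammonium exporter, at −1.75 ± 0.45 (adjusted p = 0.391), and to GUT2, of glycerol use, at 1.13 ± 0.45 (0.474). ATO3 had 28.6 and 38.7 CPM in Mex67 IP at 42 °C, against 98.0 and 124 CPM at 25 °C, so it lay opposite to most of the list. Without a tag 0 genes passed with edgeR or DESeq2 (0% of all features with each), 1 was at an unadjusted p under 0.05 (2.1%) and 20 of 28 lay above 0, with a median of 0.47 beside −0.07 over all features. YAT1, another carnitine acetyltransferase gene, and SUC2, the invertase gene, had 2.32 ± 0.75 and 1.81 ± 0.88 there (adjusted p = 1 for both), and without no-tag replicate 2 at 42 °C they had 1.19 and −1.50. SUC2 also moved to 1.13 and 2.83 without no-tag replicate 1 and replicate 2 at 25 °C.

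Regulators of glucose repression and subunits of the GID ligase formed the second list, with 33 of 34 genes tested. Upon heat 0 passed with edgeR and 0 with DESeq2 in any of the 3 sets of libraries, with 8, 3 and 1 of the 33 at an unadjusted p under 0.05 in Npl3 IP, Mex67 IP and no tag, beside 11%, 10.2% and 2.1% of all features. The Mex67 and no-tag counts are thus near the share of all features. Log2 changes above 0 were found for 26, 24 and 18 of the 33 in that order, beside 56.6%, 52.8% and 43.5% of all features. ADR1, the activator that works with Cat8, had 119 and 61.1 CPM in Npl3 IP at 42 °C, against 23.5 and 20.0 CPM in Npl3 IP at 25 °C (log2 change 2.04 ± 0.49, edgeR adjusted p = 0.279). GSM1, a zinc cluster protein gene, had 2.18 ± 0.67 (0.376) in Npl3 IP, and 1.14 without Npl3 replicate 1 at 42 °C. UBC8, the ubiquitin-conjugating enzyme that serves the GID ligase, had 1.52 ± 0.59 (0.467) and USV1, a zinc finger protein gene, 1.73 ± 0.68 (0.474) in Mex67 IP. Without Mex67 replicate 1 at 42 °C they had 0.68 and 1.10, and USV1 had 3.19 and 1.04 without Mex67 replicate 1 and replicate 2 at 25 °C. In the control TOS3, one of the kinases that activate Snf1, had −2.85 ± 0.84 and GAL83, a subunit of Snf1, had −0.80 ± 0.39 (adjusted p = 1 for both). TOS3 held 3 counts in the control at 42 °C and 44 at 25 °C, and had −1.39 without no-tag replicate 2 at 42 °C.

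Between the IPs and the control, and between the IPs, 5 genes of these lists passed with edgeR, out of 28 and 33 tested in each of 6 comparisons, and they are named because they passed. Npl3 IP against no tag called 1 gene at 25 °C and 3 at 42 °C, beside 2.4% and 7.47% of all features. Mex67 IP against Npl3 IP called 1 gene at 25 °C and 1 at 42 °C, beside 2.8% and 3.93%, and Mex67 IP against no tag called 0 at both temperatures (0%). Over both lists together these counts are near or below the shares of all features. YAT1 was higher in Mex67 IP than in Npl3 IP at 25 °C (199 and 77.0 CPM against 5.54 and 11.2, log2 change 3.94 ± 0.58, adjusted p = 0.0182) and at 42 °C (141 and 136 CPM against 35.9 and 17.6, 2.39 ± 0.51, 0.0382). The 25 °C call was lost without Mex67 replicate 1 (3.10, adjusted p = 0.239) or either Npl3 replicate (0.0573 and 0.112) at 25 °C, and the 42 °C call in 6 of 12 such fits, those without either heated Npl3 library (0.262 and 0.0768), Mex67 replicate 2 (0.115), either heated no-tag library (0.0657 and 0.0659) or no-tag replicate 2 at 25 °C (0.0516). ADR1 was lower in Npl3 IP than without a tag at 25 °C (23.5 and 20.0 CPM against 117 and 88.8, −2.25 ± 0.50, adjusted p = 0.0387), and did not pass without any 1 of these 4 libraries (0.0822 to 0.219). At 42 °C Npl3 IP was higher than no tag for UBC8 (505 and 172 CPM against 50.1 and 41.2, 2.95 ± 0.65, adjusted p = 0.0231), for HAP4, a respiration activator gene (2.15 ± 0.57, 0.0396), and for RMD5, a GID ligase subunit gene (2.85 ± 0.74, 0.0391). Each of these calls at 42 °C was lost without no-tag replicate 1 at 42 °C, the library without a high HSP26 level (adjusted p = 0.105, 0.111 and 0.136). The same held without no-tag replicate 2 (0.24, 0.339 and 0.223) or Npl3 replicate 1 (0.16, 0.299 and 0.241) at 42 °C. RMD5 was also lost without no-tag replicate 2 at 25 °C (0.0531), and HAP4 without that library (0.0526), Mex67 replicate 2 at 25 °C (0.0508) or either Npl3 library at 25 °C (0.054 and 0.0539). After correction for gene length, none of the 5 genes passed, with adjusted p of 0.0698 to 0.13.

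The features most like the mean of the 8 tested genes over the 12 libraries were PIR3, a cell wall protein gene (Pearson r = 0.89), SND1, of protein targeting to the ER (0.88), SSY1, an amino acid sensor gene (0.85), YDR262W (0.85) and ATO2, the relative of ADY2 (0.85), among 4074 features with a mean of at least 20 counts. These libraries share strains, depth and heat treatment, so the correlations are a description. PIR3 had 105 and 45.2 CPM in Npl3 IP at 42 °C, against 5.54 and 3.99 CPM at 25 °C, and 116 and 92.5 CPM in Mex67 IP at 42 °C, against 15.5 and 18.7 CPM at 25 °C. ATO2 had 113 and 20.9 CPM in Npl3 IP at 42 °C, against 4.15 and 10.4 CPM at 25 °C, with replicate 1 far above replicate 2 as for ADY2. Among the genes of the set, JEN1 (r = 0.91) and ADY2 (0.91) followed the mean most closely and MLS1 (0.58) and ICL1 (0.59) least among those tested.

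**Figure D4:**
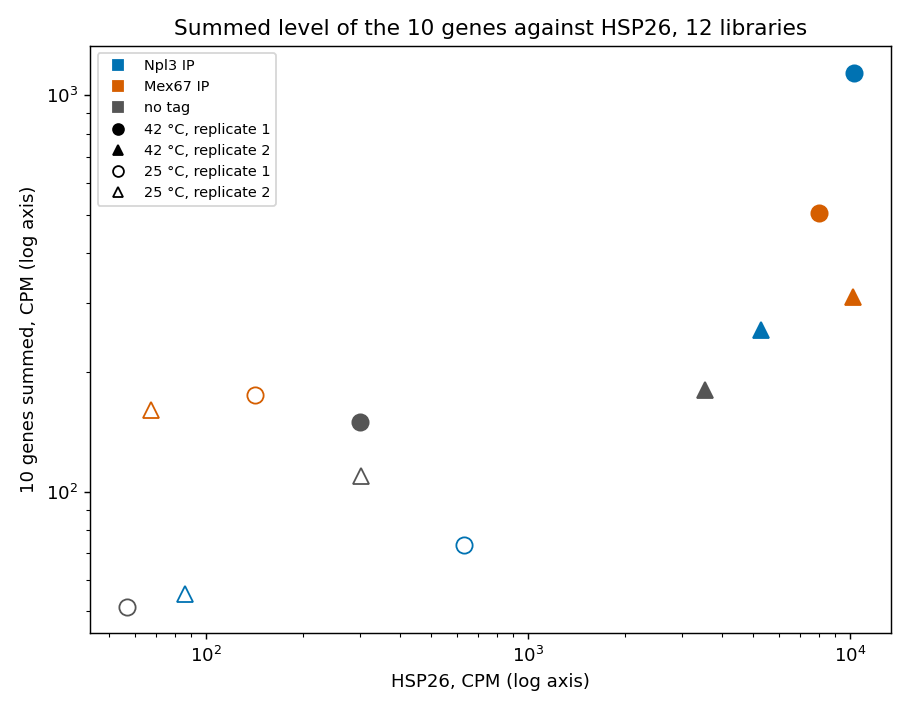
Summed level of the 10 genes against HSP26 in each of the 12 libraries (CPM, both axes log). The heated libraries with 3544 to 10305 CPM of HSP26 have 181 to 1140.2 CPM of the 10 genes, and no-tag replicate 1 at 42 °C (300.4 CPM of HSP26) lies among the unheated libraries.

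Over the 12 libraries, all 10 genes correlated positively with HSP26, with Pearson r between 0.22 (SFC1) and 0.79 (JEN1 and CAT8), as a description of libraries that share heat treatment. Within the heated libraries the order of HSP26 and of the 10 genes was not the same. Mex67 replicate 2 at 42 °C had 10215 CPM of HSP26 and 310 CPM of the 10 genes, while Npl3 replicate 1 had 10305 and 1140.2. At 25 °C Npl3 replicate 1 had the highest HSP26 level (633 CPM) with 73.4 CPM of the 10 genes, and the Mex67 libraries had 142 and 67.6 CPM of HSP26 with 175 and 161 CPM of the 10 genes. What part the strength of the heat response of each culture had in the levels of the 10 genes was not tested.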

How the data were processed

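The deposited files hold raw counts per annotated feature, 1 table per library. Per the submitters' processing notes, the authors' tools were STAR, DESeq2, CASAVA (1.8.2) and, from Subread (1.5.0-p1), featureCounts, with build R64. Alignment options, strandedness and multi-mapping reads are not given in the sources used here. Libraries were made with a TruSeq RNA kit without mRNA enrichment or rRNA depletion, per the labels' protocols. Features were named from a RefSeq table of the same build by locus tag (6048) or by symbol or synonym (38). No sequence was used here.

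Libraries held 87741 to 1140349 counts in 6 groups of 2. Tests used R 4.3.3 with edgeR 4.0.16 (quasi-likelihood, robust), TMM scaling and filterByExpr (minimum of 10 counts and 15 in total), which kept 5245 features. All 12 libraries entered 1 fit with group means (6 residual degrees of freedom); adjustment was Benjamini-Hochberg at 0.05 within each of 9 comparisons. The SE of a log2 change is its size over the square root of F. P-values measure the spread between these libraries. Log2 changes of genes not tested came from the same model without the filter. Ratios with counting intervals pooled the counts of both cultures (95%, exact, counting error only). Pooling ignores the pairing by culture and gives deeper libraries more weight, so a pooled ratio can lie outside the ratios of both cultures. Correlations used log2 CPM with a prior count of 2. Per the labels' protocols, cultures were split between both temperatures, so the culture pairs heated and unheated libraries of a strain; deviations of same-numbered libraries correlated at 0.11 (Npl3 IP), 0.60 (Mex67 IP) and 0.27 (no tag) over 2247 genes. Alternatives were DESeq2 1.42.0, other scalings and filters, length-corrected offsets, both blocks and leaving out each library. Methods were tested on simulated data. Replicates of a group differed beyond counting noise (chi-square per degree of freedom at least 10.8).

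The members, the lists and the tests were chosen with earlier results of these data known. All 10 members are named; of each list, genes that passed, or else the 2 with the lowest p, and the 5 features most like the members; genes that passed between IPs, and DESeq2 calls, were named after their values were seen. Figures were drawn with matplotlib 3.10.9.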

Additional observations from a re-analysis of the deposited data

Results flagged for a closer look

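SFC1, the mitochondrial succinate and fumarate carrier gene, was marked because its heat change differed between the IPs. In TMM-scaled CPM it was higher at 42 °C in both Npl3 cultures and lower in both Mex67 cultures. Relative to unscaled totals it was not lower in the first Mex67 culture. Its fitted log2 heat change was 2.30 in Npl3 IP and −0.92 in Mex67 IP, a difference of 3.22 that was not tested. The counts behind it were 10 and 5 in Npl3 IP at 42 °C, against 0 and 3 at 25 °C, and 3 and 3 in Mex67 IP at 42 °C, against 1 and 5 at 25 °C. Without Mex67 replicate 2 at 25 °C the Mex67 change was 0.55, so the opposite direction rests on that library. Leaving out the heated Npl3 replicate 1 gave a Npl3 change of 1.41. Leaving out the unheated Npl3 replicate 2 gave 5.30, so the size of the difference also rests on single Npl3 libraries.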

How the results depend on the processing

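Of 435 alternative values of counts and medians, 351 stayed within 1.5 times the count or 1 SD of the median and 84 moved, 40 of them on leaving out 1 library; the median heat change of the 10 genes stayed above 0 in all. The cause was not tested unless named. For the 10 genes, the number passing in Npl3 IP against no tag at 42 °C was 1 with total counts only, without the low-count filter, with only the groups compared or with the replicate number as a replicate block, and 2 with DESeq2 (0 to 4 leaving out 1 library). In Mex67 IP against Npl3 IP at 25 °C it was 1 without the filter, with DESeq2 or with that block (0 to 1), and at 42 °C 0 with total counts only, with only the groups compared, with length correction or at a mean of 50 counts or more (fewer genes tested), and 2 with the block (0 to 1). It stayed at 0 to 0 elsewhere. Where the library left out belongs to a group compared, that group keeps 1 library and is assumed to vary like the other groups. The upper ends of these ranges, here and below, are therefore not evidence of more calls.

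The median heat change of the 10 genes was 1.21 in Mex67 IP with total counts only. Without a tag it was 1.62 at a mean of at least 50 counts, 1.68 with the replicate number and 1.12 with the culture as a block, and 0.59 or 0.85 from differences per culture with prior counts of 2 or 0.5. The same differences gave 0.92 or 1.12 in Mex67 IP. Leaving out 1 library gave 1.76 to 4.09 in Npl3 IP, 0.88 to 1.37 in Mex67 IP and 0.43 to 1.81 without a tag.

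For both lists together, Npl3 IP against no tag at 25 °C called 0 with total counts only or length correction, 2 without the filter, 4 with only the groups compared and 3 with the block (0 to 1 leaving out 1 library). At 42 °C it called 6 with total counts only or DESeq2 and 0 with length correction (0 to 8, with 8 without Npl3 replicate 2 at 42 °C). Mex67 IP against no tag at 25 °C called 1 without the filter or with DESeq2 (0 to 1). Mex67 IP against Npl3 IP at 25 °C called 3 without the filter or with only the groups compared, 0 at a mean of at least 50 counts or with length correction, 2 with DESeq2 and 5 with the block (0 to 4). At 42 °C it called 0 with total counts only, with only the groups compared, with length correction or at a mean of 50 counts or more, 3 without the filter, 2 with DESeq2 and 5 with the block (0 to 5). Upon heat, the carbon source list had 1 call in Npl3 IP with DESeq2 or the culture block (0 to 1). These list counts were added after seeing the data.

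With 2 libraries a group, and 9 to 921 counts of the 10 genes in a library, FBP1, SFC1 and MLS1 are limited by counting error.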
